A study of Homo sapiens with 6 samples.

Results

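The miRNAs described here are those of the distal part of the imprinted 14q32 cluster, from the miR-380 hairpin to the miR-656 hairpin, without the names that begin with miR-379, miR-411, miR-299 or miR-376. They were taken by position on chromosome 14 from the deposited tables, which list 2576 mature human miRNAs, and 61 of these met the rule. The 61 mature miRNAs come from 33 hairpin names spread over 41.71 kb. Of the 61, 27 are named as the 5p arm of their hairpin, 28 as the 3p arm and 6 carry no arm in their name. A filter of at least 5 CPM, a count divided by its library's total and scaled to a common total, in at least 3 of the 6 libraries left 430 of the 2576 miRNAs for testing, and 47 of the 61.

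Small RNA libraries were made from whole MIO-M1 cells and from the extracellular vesicles (EV) that MIO-M1 cells released. MIO-M1 is an established human Müller glial cell line, labelled wild type (WT), so that all libraries come from 1 line and not from different donors. Whole cell RNA was taken at passages 22, 24 and 26, and EV RNA at passages 23, 25 and 27, and replicates 1, 2 and 3 of a group follow the order of passage. Cells were grown in DMEM with serum, washed and kept in serum-free DMEM, and EV were collected from this medium by repeated centrifugation, with no drug or other agent named for either group. The methods name the medium for EV collection as vesicle-depleted and not as serum-free. They do not say whether the whole cell samples were kept in it. The methods also describe RNase A on intact EV, a step the cells did not have. RNA came from cell pellets with the RNeasy kit and from EV pellets with the Total Exosome RNA Isolation Kit. Fraction, RNase step and kit therefore cannot be told apart in any comparison below. No passage was sampled in both fractions, so passage differed between them as well. Because the libraries are bulk samples, fewer EV and less RNA per EV cannot be told apart either, and every value is a level relative to the other miRNAs of its library.

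The 14q32 cluster belongs to the DLK1-DIO3 imprinted region, in which the protein-coding genes are expressed from the paternal copy and the long non-coding RNAs and miRNAs from the maternal copy. The miRNA hairpins lie in long non-coding transcripts such as MEG8 and MEG9, and the pre-miRNA is cut into a 5p and a 3p strand, of which usually 1 is retained by an Argonaute protein. The retained strand binds mRNAs mainly through its seed, bases 2 to 8. The cluster is expressed in brain and placenta, and in neurons miR-134 acts in dendritic spines and the cluster is induced by synaptic activity.

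The mature sequences of 60 of the 61 were found in RefSeq. Those that carry the main results are printed 5′ to 3′, with the seed (bases 2 to 8) in capitals. The first set holds the miRNAs that were higher in EV:
miR-382-3p: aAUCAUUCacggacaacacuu
miR-889-3p: uUAAUAUCggacaaccauugu
miR-381-3p: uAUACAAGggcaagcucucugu
miR-300: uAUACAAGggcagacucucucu
miR-655-3p: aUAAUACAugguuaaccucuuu
miR-369-3p: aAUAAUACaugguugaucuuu
miR-369-5p: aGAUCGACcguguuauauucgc

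The second set holds the miRNAs that were lower in EV:
miR-323b-3p: cCCAAUACacggucgaccucuu
miR-409-5p: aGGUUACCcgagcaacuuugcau
miR-487a-5p: gUGGUUAUcccugcuguguucg
miR-494-5p: aGGUUGUCcguguugucuucucu
miR-381-5p: aGCGAGGUugcccuuuguauau
miR-410-5p: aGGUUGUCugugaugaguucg

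The third set holds the 6 strands with the highest mean level in whole cells:
miR-409-3p: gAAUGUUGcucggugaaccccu
miR-382-5p: gAAGUUGUucgugguggauucg
miR-134-5p: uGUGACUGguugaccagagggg
miR-654-3p: uAUGUCUGcugaccaucaccuu
miR-323a-3p: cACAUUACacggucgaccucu
miR-485-3p: gUCAUACAcggcucuccucucu

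Several of the printed strands share a seed. miR-300 and miR-381-3p share AUACAAG and differ at 3 bases over the whole mature sequence. miR-494-5p and miR-410-5p share GGUUGUC with miR-323b-5p. The other shared seeds are AUCAUAC in miR-487a-3p and miR-154-3p, GGUGGGC in miR-654-5p and miR-541-3p, UAUACAG in miR-1185-1-3p and miR-1185-2-3p, UCAUACA in miR-539-3p and miR-485-3p, and UGGUUAU in miR-487a-5p and miR-487b-5p. None of these 7 seeds occurred in another human mature sequence of the RefSeq table. Members that differ at few bases can exchange reads in the counting, which holds for miR-1185-1-3p and miR-1185-2-3p (1 base), for miR-300 and miR-381-3p, for miR-487a-5p and miR-487b-5p and for miR-487a-3p and miR-487b-3p (3 bases each). miR-329 and miR-1185-5p are listed at 2 loci each, which the counts do not separate.

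A search of the 60 sequences found the letters UACACGG in miR-323a-3p, miR-494-3p, miR-485-3p, miR-323b-3p and miR-154-3p, and these were the only 5 of 2370 human mature sequences with them (0.211%, against 8.33% of the 60). The letters AGGUU were found in 10 of the 60 (16.7%), each a 5p strand, and in 59 of the 2370 (2.49%). Both runs of letters were chosen after the sequences had been read. GGAG and GGCU, letters named in other cells as sorting motifs for exosomes, were found in 3 of the 60 each (5%), against 15.7% and 12.6% of the 2370. Mature RNA was searched on its own strand, and in miR-485-3p the UACACGG and GGCU letters overlap.

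The deposited tables name no genome build. In them the first position of miR-380-5p is chr14:101491358-101491379 and the last, of miR-656-3p, is chr14:101533103-101533123, each 466337 bases beyond the place of the same strand in GRCh38, an offset shared by 57 of the miRNAs with a single locus. On GRCh38, 33 RefSeq precursors of 31 of the hairpin names, all but miR-381 and miR-412, were set against the long non-coding RNAs of GENCODE 29. There, 10 precursors lay in introns of MEG8, 5 in introns of MIR381HG, 4 in introns of MEG9 and 1, MIR410, in an exon of MEG9. The other 13 lay within no such annotation.

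Library depth, the sum of all counts, lay between 396025 and 3990900 for whole cell libraries and between 1225541 and 3134561 for EV libraries. Whole cell replicate 1, the shallowest library, stood apart, and not only within the cluster. Over shared miRNAs, its chi-square over degrees of freedom was 150 against replicate 2 and 232 against replicate 3. Between replicates 2 and 3 it was 41.9. Of the 47 tested miRNAs, 12 were more than 2-fold higher in replicate 1 than in both other whole cell libraries, among them miR-543, miR-154-3p and miR-369-3p. Another 4 were more than 2-fold lower, among them both arms of miR-485. Some of these rest on few counts in replicate 1, such as 0 for miR-380-5p and 8 for miR-1185-5p. The same numbers over all 430 miRNAs are not given here. Where a library had a count of 0, up to 3 counts were allowed for, from 0.752 CPM in whole cell replicate 2 to 7.58 CPM in whole cell replicate 1. This limit and the intervals below cover counting error only. No source used here states that the replicates are separate cultures beyond their passage, so the p-values measure the spread between these libraries. The 5 miRNAs listed as markers of Müller glia were counted in every whole cell library and summed to between 139473 and 140849 CPM there, against 79668.5 to 109575 CPM in EV. Of the 5, miR-125b-5p and miR-204-5p were below the whole cell range in each EV library, and the groups overlapped for miR-99a-5p, miR-100-5p and miR-9-5p. Markers of blood and endothelium summed to between 258 and 1192 CPM in whole cells, with miR-451a and miR-144-3p at 0 in all 3, and to between 1975 and 2919 CPM in EV. Markers of retinal neurons and photoreceptors summed to between 227 and 333 CPM in whole cells and to between 1151 and 1218 CPM in EV, and miR-124-3p was at 0 in all 6 libraries. The part of serum or of other cells in the values below was not tested.

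The first comparison asks how much of the miRNA of each fraction comes from the distal cluster. The 61 miRNAs together made up 4.39%, 4.49% and 4.51% of all counts in whole cells (here and below in the order of replicates 1, 2 and 3) and 3.47%, 4.001% and 3.98% in EV. The 2 groups did not overlap, with EV the lower. The means were 4.46% ± 0.0646 (SD, n = 3) and 3.82% ± 0.301 (SD, n = 3), and the 95% Wilson interval of a library spanned at most 0.128 percentage points. A two-sided exact permutation test gave p = 0.1, the smallest that 3 against 3 libraries allow. The difference of -0.647 percentage points was -0.0181 without miR-409-3p. In that remainder, rises and falls of other miRNAs nearly cancelled. The mean of miR-485-3p, for instance, was 2438 CPM in whole cells and 521 CPM in EV, and that of miR-381-3p 1020 and 3748 CPM.

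The difference was smaller than that of the neighbouring miRNAs of the same cluster. The 18 proximal 14q32 miRNAs held 4.22% ± 1.10 of all counts in whole cells against 1.84% ± 0.181 in EV (SD, n = 3 each). The miR-379, miR-411, miR-299 and miR-376 names, which lie among the distal miRNAs, had the opposite order, with 0.433% ± 0.165 in whole cells and 1.41% ± 0.382 in EV (SD, n = 3 each). The log2 ratio of the distal to the proximal sum was 0.11 ± 0.38 in whole cells against 1.05 ± 0.08 in EV (SD, n = 3 each), with no overlap. The difference of 0.94 gave p = 0.1 in the exact permutation test, or 0.1 adjusted over the 4 measures tested. It was 0.087 when the most abundant miRNA of each list, miR-409-3p and the proximal miR-127-3p, was left out.

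A few strands dominated both fractions. miR-409-3p was the most abundant in whole cells, at 11322, 15595 and 15136 CPM, and had 5087, 8048 and 10055 CPM in EV. miR-382-5p followed with 11747, 7279 and 7478 CPM in whole cells and was first in EV with 8337, 5660 and 10986 CPM. The neuronal spine regulator miR-134-5p ranked 3 in both, at 5046 ± 1521 CPM and 5406 ± 1984 CPM (SD, n = 3 each). miR-654-3p ranked 4 in both, at 3622 ± 401 CPM and 4307 ± 1036 CPM (SD, n = 3 each). The 4 strands held 70.6% ± 1.06 of the distal count in whole cells and 67.4% ± 5.21 in EV (SD, n = 3 each). For miR-382-5p, miR-134-5p and miR-654-3p the groups overlapped, with log2 fold changes of -0.00 (SE 0.38), 0.01 (SE 0.41) and 0.26 (SE 0.30) in EV against whole cells. miR-409-3p had a log2 fold change of -0.89 (SE 0.39) and an adjusted p of 0.152 in edgeR's quasi-likelihood test. In DESeq2 the values were -1.08 and 0.0253. Its groups were separate on plain CPM but overlapped once the libraries were scaled by TMM.

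At the other end, 7 of the 33 hairpins had a mean under 10 CPM in whole cells, with both arms summed, and 9 had 1000 CPM or more. miR-544a had no count in any library. Of the 14 miRNAs that did not pass the filter, none had more than 54 counts in any library, and that count, in EV replicate 2, belonged to miR-656-3p.

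**Figure D1:**
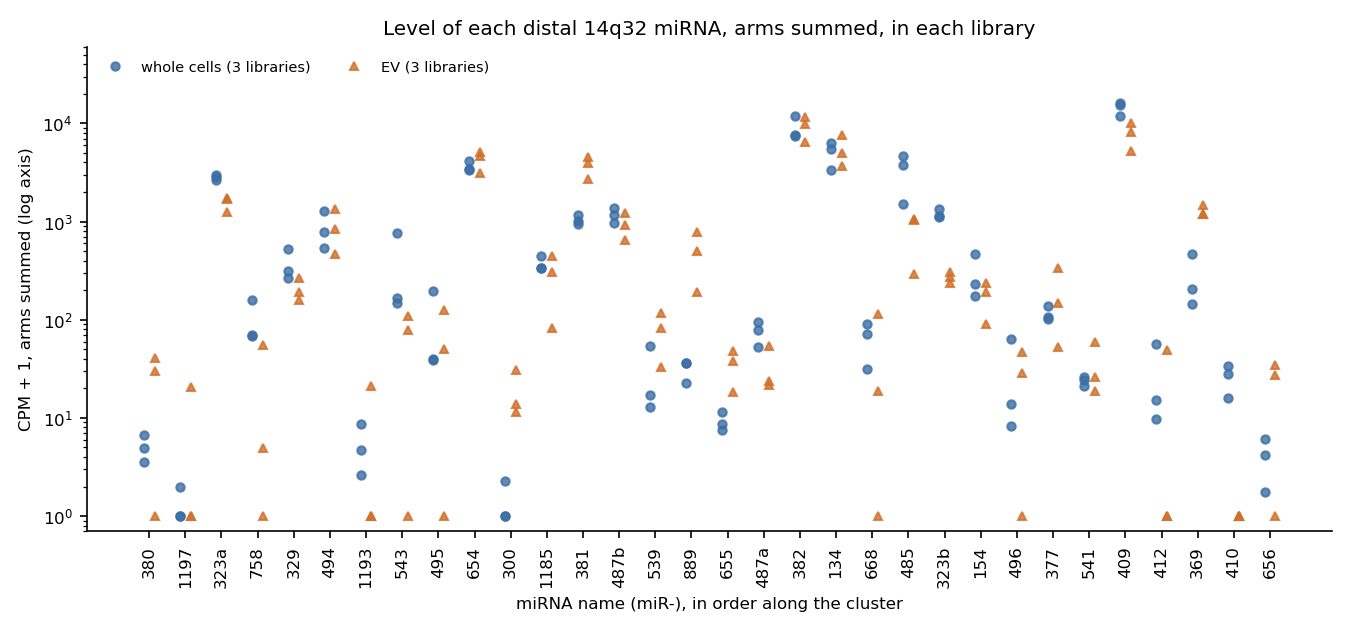
CPM + 1 on a log axis for each hairpin of the distal cluster that had a count, with both arms summed and hairpins in order along chromosome 14. Each point is 1 library, circles for whole cells and triangles for EV, and the tallest columns are miR-409, miR-382, miR-134 and miR-654 in both fractions.

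The second comparison asks which of the miRNAs differed between EV and whole cells of the same line. In edgeR, miR-889-3p and miR-382-3p rose in EV and none fell at the limits taken from the study. These were an adjusted p under 0.01 together with a log2 fold change of 2.5 or more in size. The study applied them to DESeq2. Here they were applied to edgeR's quasi-likelihood test, adjusted by Benjamini-Hochberg over all 430 miRNAs, with DESeq2 as the alternative. The background at these limits was 4.42% of the 430 called higher and 1.4% called lower. At an adjusted p below 0.05 with no limit on size, 7 of the 47 were higher and 6 were lower, against a background of 14.7% and 14%. Beside the count of 0 lower, 16 of the 47 had an unadjusted p below 0.05, and DESeq2 at the same limits called 4 lower and 2 higher (background 6.98% and 9.77%). The median log2 fold change was -0.31 over the 47 and -0.23 over the 430. Both shares at an adjusted p below 0.05 lay near their background.

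miR-382-3p, the minor strand of the miR-382 hairpin, lies at chr14:101520689-101520709 in the tables. Its level was 65.7, 78.9 and 79.9 CPM in whole cells, and 1434, 851 and 717 CPM in EV. All EV libraries stood far above the whole cell libraries, which differed little among themselves. The log2 fold change was 3.74 (SE 0.51), with an adjusted p of 0.00427 in edgeR.

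miR-889-3p lies at chr14:101514286-101514306. It had 27.8, 28.3 and 16.8 CPM in whole cells and 470, 766 and 193 CPM in EV, again without overlap. It ranked 34 of the 61 in whole cells and 13 in EV. The log2 fold change was 4.24 (SE 0.66), with an adjusted p of 0.00661 in edgeR. Of the 6 fits that left out 1 library, only the one without EV replicate 3 kept the calls of miR-382-3p and miR-889-3p at 0.01, and in the other fits both calls were lost. In all 6 the adjusted p of both miRNAs in edgeR stayed below 0.05, with a highest value of 0.0213 for miR-382-3p and 0.0380 for miR-889-3p. Without whole cell replicate 1 the only miRNA of the cluster past both limits was miR-369-3p, with a log2 fold change of 3.59 and an adjusted p of 0.00961 in edgeR.

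miR-381-3p was the most abundant of the 7 that were higher. Its level was 1124, 939 and 996 CPM in whole cells and 3956, 4566 and 2721 CPM in EV. The means were 1019.6 ± 94.5 and 3748 ± 939.9 CPM (SD, n = 3 each), and it ranked 9 of the 61 in whole cells and 5 in EV. The log2 fold change of 1.87 (SE 0.30) was below the limit of 2.5, with an adjusted p of 0.00661 in edgeR. miR-300, which has the same seed, was at 0, 1.25 and 0 CPM in whole cells, from counts of 0, 5 and 0, and at 10.6, 12.8 and 29.99 CPM in EV. Its adjusted p was 0.0434 in edgeR and 0.0707 in DESeq2, and it was 0.119, 0.0961 and 0.211 in edgeR without whole cell replicate 1, 2 and 3.

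Both strands of miR-369 were higher in EV. miR-369-3p, known for binding an AU-rich element of TNF mRNA and raising its translation in serum-starved cells, had 232, 61.9 and 35.1 CPM in whole cells and 710, 758 and 622 CPM in EV. Its whole cell libraries were spread widely, with replicate 1 highest, and its EV libraries lay close together above them. The log2 fold change was 2.82 (SE 0.67) and the adjusted p in edgeR 0.0171, which became 0.0590 without whole cell replicate 2 and 0.0634 without EV replicate 2. miR-369-5p had 237, 141 and 109 CPM in whole cells and 778, 444 and 584 CPM in EV, a log2 fold change of 1.99 (SE 0.49). Its adjusted p of 0.0191 in edgeR became 0.0930 and 0.103 without whole cell replicate 2 and 3.

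miR-655-3p was near the limit of detection in whole cells, with 1, 8 and 3 counts, and had 57, 35 and 117 counts in EV. On the CPM scale it went from 2.31 ± 0.271 to 33.7 ± 15.01 (SD, n = 3 each), and the groups did not overlap. The log2 fold change was 3.90 (SE 1.14) and the adjusted p in edgeR 0.0398, or 0.109, 0.322 and 0.238 without whole cell replicate 1, 2 and 3.

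Among the 6 that were lower, miR-323b-3p had the smallest adjusted p. It lies at chr14:101522606-101522627 and had 1116, 1356 and 1148 CPM in whole cells and 233, 254 and 309 CPM in EV. The libraries of each group lay close together and the groups were far apart. The log2 fold change of -2.18 (SE 0.38) fell short of the limit of 2.5, with an adjusted p of 0.00872 in edgeR that was at most 0.0380 with any library left out. miR-409-5p, the minor strand of miR-409, had 460, 361 and 272 CPM in whole cells and 133, 100 and 49.4 CPM in EV. Its log2 fold change was -1.91 (SE 0.57) with an adjusted p of 0.0406 in edgeR, and this became 0.0629, 0.200 and 0.0942 without whole cell replicate 1, 2 and 3 and 0.0767 without EV replicate 2.

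The other 4 that were lower had no count in any EV library. miR-487a-5p, at chr14:101518795-101518816, had 29, 178 and 77 counts in whole cells, or 73.2, 44.6 and 61.5 CPM. By counting error alone, with 3 counts per EV library as the limit, it was at least 35.6-fold lower in EV. On the same terms miR-410-5p (9, 48 and 30 counts in whole cells) was at least 11.8-fold lower, miR-381-5p (12, 53 and 10 counts) at least 9.71-fold lower and miR-494-5p (7, 50 and 21 counts) at least 9.41-fold lower. Of 47 miRNAs with at least 20 counts in some EV library, 20 were at 0 in another EV library. A count of 0 in EV can therefore stand beside a level well above this limit. The folds are thus not firm lower bounds on the difference between the fractions. The 4 are all 5p strands. Their adjusted p in edgeR lay between 0.0112 and 0.0118 and stayed below 0.05 with any library left out. These 4 were the ones that DESeq2 called lower.

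**Figure D2:**
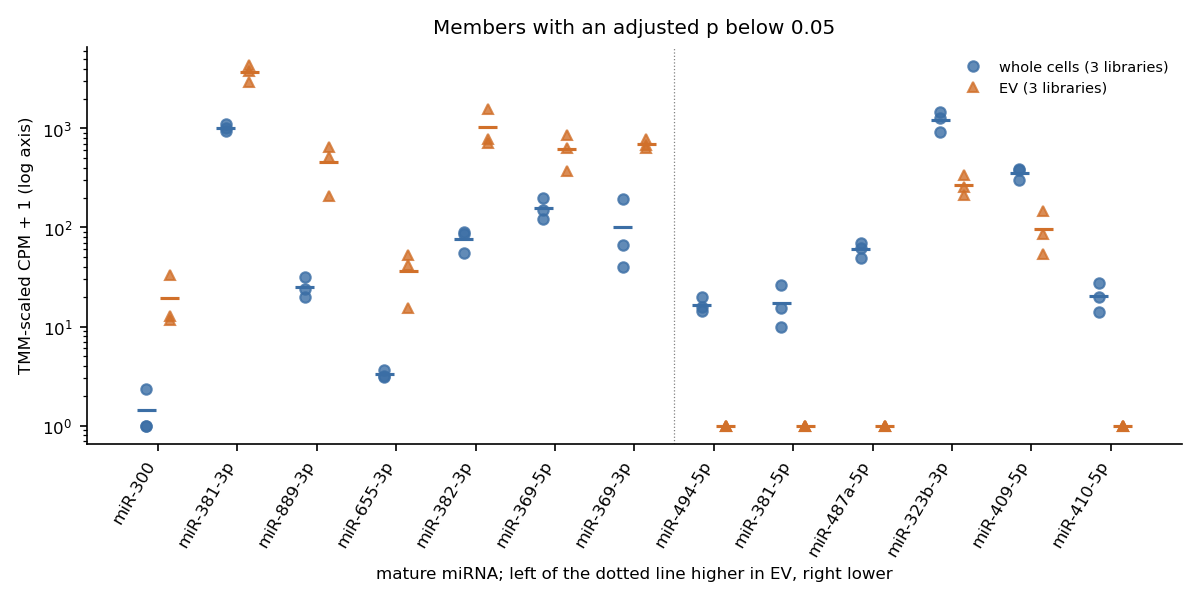
TMM-scaled CPM + 1 on a log axis for the 13 miRNAs with an adjusted p below 0.05, with whole cell libraries as circles, EV libraries as triangles and the mean of each group as a bar. No pair of groups overlaps, and 4 of the 6 lower miRNAs sit at 0 counts in all EV libraries.

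The sign of the fitted change of all 13 was the same under every other fit tried, of tool, scaling, filter and left-out library. The number with an adjusted p below 0.05 was 12 in DESeq2, 13 with other scalings and 9 with no filter on low counts. It was 10, 8 and 9 without whole cell replicate 1, 2 and 3, and 13, 11 and 13 without EV replicate 1, 2 and 3. By overlap alone, on TMM-scaled CPM, 9 of the 47 had every EV library above every whole cell library (background 20.9%) and 14 had every EV library below (background 27.4%).

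Among abundant strands that did not pass the test, miR-323a-3p and miR-485-3p were below the whole cell range in each EV library. miR-323a-3p had 2937, 2820 and 2599 CPM in whole cells and 1247, 1708 and 1698 CPM in EV, with an adjusted p of 0.0645 in edgeR and 0.00313 in DESeq2. miR-485-3p had 1311, 2728 and 3275 CPM in whole cells and 95.5, 734 and 733 CPM in EV, with an adjusted p of 0.0629 in edgeR and 0.00312 in DESeq2. EV replicate 1 was the lowest library for it, and whole cell replicate 1 was well below the other whole cell libraries. Its partner miR-485-5p had 194, 1043 and 1327 CPM in whole cells and 198, 334 and 311 CPM in EV, where whole cell replicate 1 lay below all EV libraries, and an adjusted p of 0.140 in edgeR and 0.0270 in DESeq2. miR-494-3p and miR-487b-3p, at 847 ± 378 and 1075 ± 217 CPM in whole cells, were at 885 ± 442 and 922 ± 276 CPM in EV (SD, n = 3 each), with overlapping groups.

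The 5 miRNAs with the letters UACACGG did not move as 1 group. miR-323b-3p was lower, miR-323a-3p and miR-485-3p had the values above, miR-494-3p overlapped, and miR-154-3p had 60.6, 4.01 and 1.60 CPM in whole cells and 12.2, 0 and 54.6 CPM in EV. miR-154-3p was thus as variable within each group as between them.

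Detection was patchier in EV. Fewer miRNAs were also counted in EV over the whole series. Of all 2576 miRNAs, 586, 1058 and 811 had a count in whole cells and 431, 427 and 329 in EV. The lower detection was thus not particular to the distal miRNAs. Of the 61 miRNAs, 60 had at least 1 count in some whole cell library and 52 in all of them, while 48 had a count in some EV library and 27 in all. Of 47 miRNAs with at least 20 counts in some EV library, 20 were at 0 in another EV library, against 1 of 46 in whole cells. miR-377-5p was 1 example, with 80.8, 86.7 and 93.4 CPM in whole cells and 0, 22.6 and 0 CPM in EV. Low counts were also rarer in EV, where 2, 1 and 1 of the 61 had 1 to 9 counts in replicates 1, 2 and 3, against 18, 8 and 14 in whole cells. The number at 0 was 17, 23 and 29 in EV and 7, 3 and 7 in whole cells, although 2 of the EV libraries were deeper than 2 of the whole cell libraries. Of the 13 miRNAs at 0 in all EV libraries, 8 were 5p strands and 4 were 3p strands.

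The third comparison follows the 2 strands of each hairpin. In most hairpins the 3p strand lay higher in EV, relative to whole cells, than its 5p partner. Of the 5p strands, 22 were tested, 1 was higher and 5 were lower at an adjusted p below 0.05 in edgeR, with a median log2 fold change of -1.22. Of the 3p strands, 22 were tested, 5 were higher and 1 was lower, with a median of 0.17. Over all 430 miRNAs the medians were -0.20 for 192 5p strands and -0.61 for 185 3p strands. At the same adjusted p in edgeR, 14.7% of the 430 were higher and 14% lower. Their split by arm is not given here, so the calls by arm have no background of their own. Hairpins with 1 tested strand of each arm numbered 16. In 14 of them (87.5%), the fitted change of the 3p strand was above that of the 5p strand, miR-485 and miR-758 being the exceptions. miR-1185, which has 2 names for its 3p strand, was tested in both arms but left out of this count. It went the other way, at 1.17 for the 5p strand and -0.71 and -0.20 for the 3p strands. In miR-381, miR-487a and miR-494 the higher 3p value rests on a 5p strand at 0 in all EV libraries. The 5p strands of miR-323a, miR-329, miR-377, miR-487b, miR-495, miR-654, miR-758 and miR-889 were at 0 in some EV libraries. So were the 3p strands of miR-154, miR-495 and miR-758. In miR-323a and miR-654 the gap between the strands was 0.40 and 0.57, below the SE of the 5p strand (1.67 and 1.96). Outside the distal miRNAs the 3p strand was above in 45 of 94 hairpins (47.9%). These counts over hairpins are a description and carry no test. They weigh each hairpin alike. In the summed count of the 61, which a few abundant strands dominate, the 5p strands held 36.1% ± 2.64 in whole cells and 39.4% ± 3.66 in EV (SD, n = 3 each), and the groups overlapped.

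**Figure D3:**
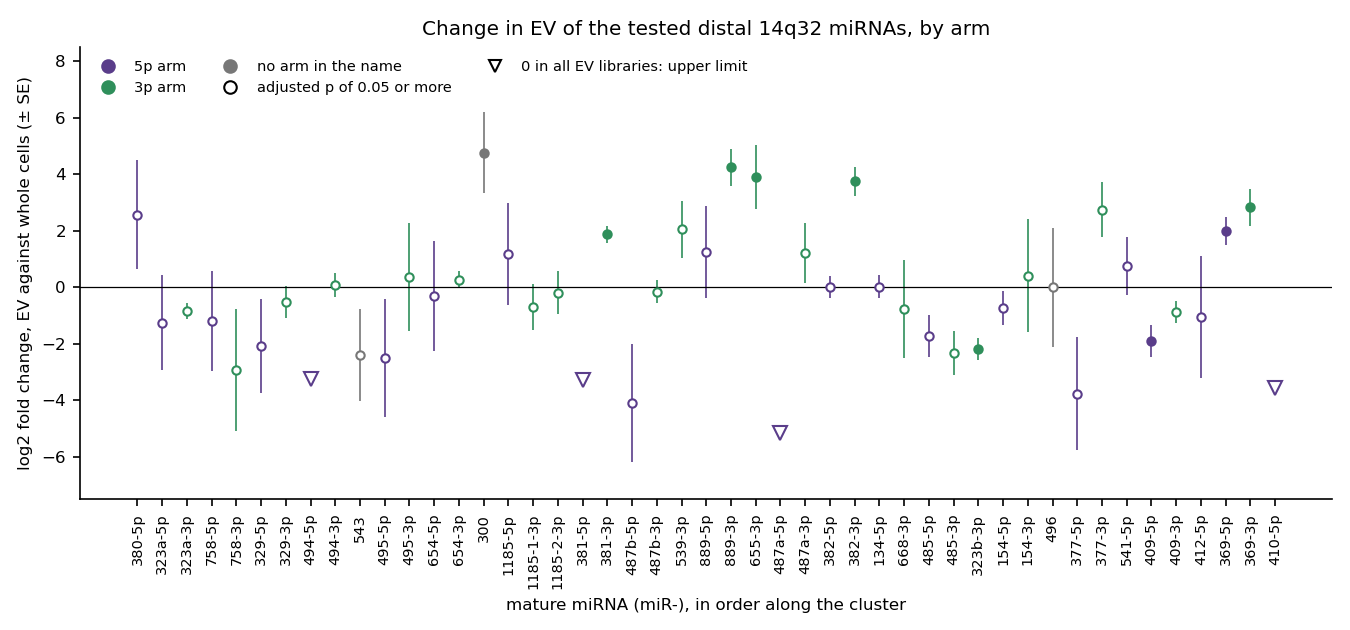
Log2 fold change in EV against whole cells, with its SE, for the tested miRNAs in order along the cluster. Filled points have an adjusted p below 0.05 and colours mark the arm. Open triangles show the upper limit, by counting error alone, for the 4 strands with no count in EV. The filled 3p points lie mostly above 0 and the 5p limits below it.

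The share of a hairpin's count held by its 5p strand does not depend on how libraries are scaled. It was computed for the 15 hairpins with at least 30 counts over both strands in every library. In 5 of them, miR-494, miR-381, miR-487b, miR-382 and miR-377, every EV library had a lower 5p share than every whole cell library, and in 3, miR-134, miR-485 and miR-323b, a higher one. The other 7 overlapped. Of the 3 with a higher share, miR-134 went only from 99.7%, 99.9% and 99.9% in whole cells to 100% in each EV library. miR-323b rests on 1, 35 and 1 counts of its 5p strand in EV. No such count over hairpins outside the distal miRNAs is given here, so these numbers stand without a background. Each hairpin without overlap had p = 0.1 in the two-sided exact permutation test, and 0.188 after adjustment over the 15, so none can pass 0.05 with 3 libraries per group. The 95% Wilson interval of an arm share spanned at most 25.4 percentage points.

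Among these 15 hairpins, the difference between the mean shares was largest in miR-377. Its 5p strand held 59.3%, 86.5% and 89.3% of the hairpin count in whole cells and 0%, 6.66% and 0% in EV. The main strand of the hairpin thus differed between the fractions. miR-377-3p itself had 55.6, 13.5 and 11.2 CPM in whole cells and 52.2, 316 and 149 CPM in EV, with an adjusted p of 0.0770 in edgeR and 0.0292 in DESeq2. The sequences of the 2 strands are given for reference, as the 5p strand is 1 of the 10 with the letters AGGUU:
miR-377-5p: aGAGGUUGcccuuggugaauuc
miR-377-3p: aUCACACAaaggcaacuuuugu

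In miR-382 the 5p strand remained the main one, at 99.4%, 98.9% and 98.9% in whole cells and 85.3%, 86.9% and 93.9% in EV. Since miR-382-5p had nearly the same level in both fractions, this difference is the rise of miR-382-3p seen from within the hairpin. In miR-487b the 5p share was 5.87%, 8.11% and 10.8% in whole cells and 1.28%, 0% and 0% in EV. In miR-369 it was 50.5%, 69.5% and 75.6% in whole cells and 52.3%, 36.9% and 48.4% in EV, and whole cell replicate 1 overlapped the EV libraries. miR-485 went the other way, with 12.9%, 27.7% and 28.8% in whole cells and 67.5%, 31.2% and 29.8% in EV, where EV replicate 1 was far above and whole cell replicate 1 far below the other libraries, which lay close together.

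A minimum of 10 counts added miR-487a, miR-539 and miR-889, and all 3 had a lower 5p share in every EV library. The 5p share of miR-487a was 78.4%, 85.2% and 79.4% in whole cells and 0% in each EV library, from few counts of miR-487a-3p in whole cells (20.2, 7.77 and 16.0 CPM), a strand that differs at 3 bases from the more abundant miR-487b-3p. In miR-889 it was 21.4%, 19.3% and 22.2% in whole cells and 5.42%, 2.44% and 0% in EV.

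**Figure D4:**
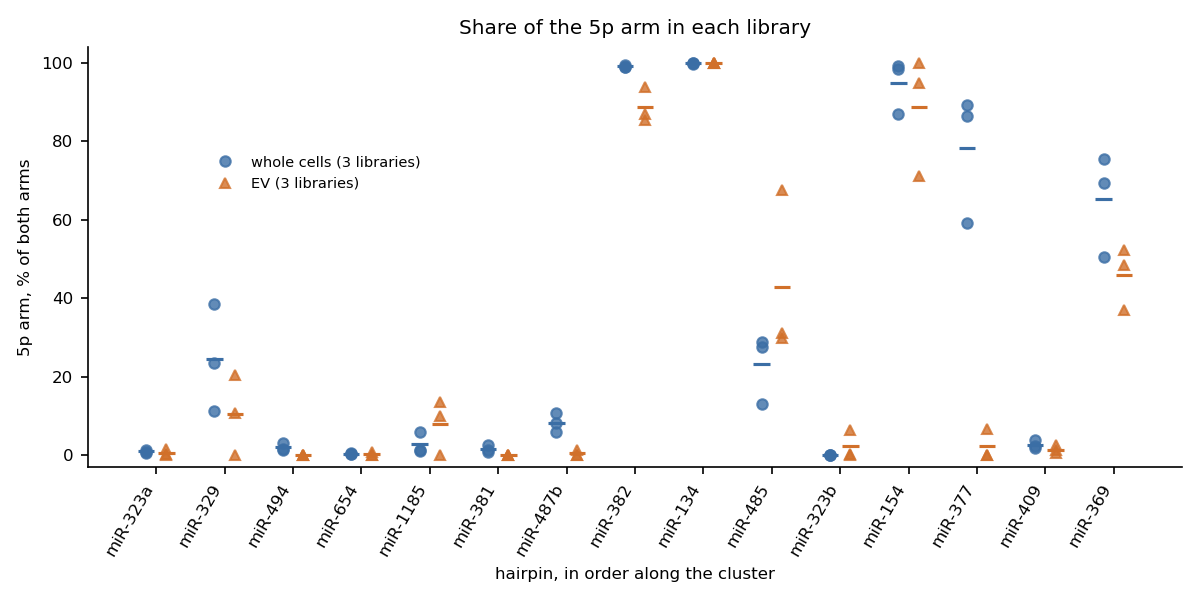
Share of the 5p strand in the count of its hairpin, in percent, for the 15 hairpins with at least 30 counts in every library. Circles are whole cell libraries, triangles EV libraries and bars the group means; miR-377 moves from 59.3% or more in whole cells to 6.66% or less in EV.

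Position along the cluster was set against the change in EV. Across the 47 tested miRNAs, Pearson's r between position and log2 fold change was 0.0571 and Spearman's rho 0.0945, as a description only. Higher and lower miRNAs were mixed along the cluster, and miR-381-3p and miR-381-5p, of 1 hairpin, lay on opposite sides. The 7 higher miRNAs ran from miR-300 to miR-369, and the 6 lower ones from miR-494 to miR-410.

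Base composition of the mature strand varied with the change. The 7 higher miRNAs had between 23.8% and 45.5% G and C, with a median of 38.1%, and the 6 lower ones between 45.5% and 54.5%, with a median of 47.8%. Across the 46 tested miRNAs with a sequence, r was -0.417 and rho -0.529. Among the 3p strands r was -0.796 and rho -0.848 (n = 21), and among the 5p strands 0.0415 and 0.0530 (n = 22). The 5p values include the fitted changes of strands with no count in any EV library, which are not firm. Across the 25 miRNAs of the cluster with at least 1 count in every library, r was -0.770 and rho -0.770. This set was not split by arm, so a difference in slope between the arms was not tested. Across all 390 tested miRNAs with a sequence r was -0.345 and rho -0.423, so the negative slope was not limited to the cluster. The points of each correlation share the same 6 libraries, kits and depth, and the part of base composition in the arm difference was not tested. The 5p strands had a median of 50% G and C and the 3p strands of 40.9%.

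**Figure D5:**
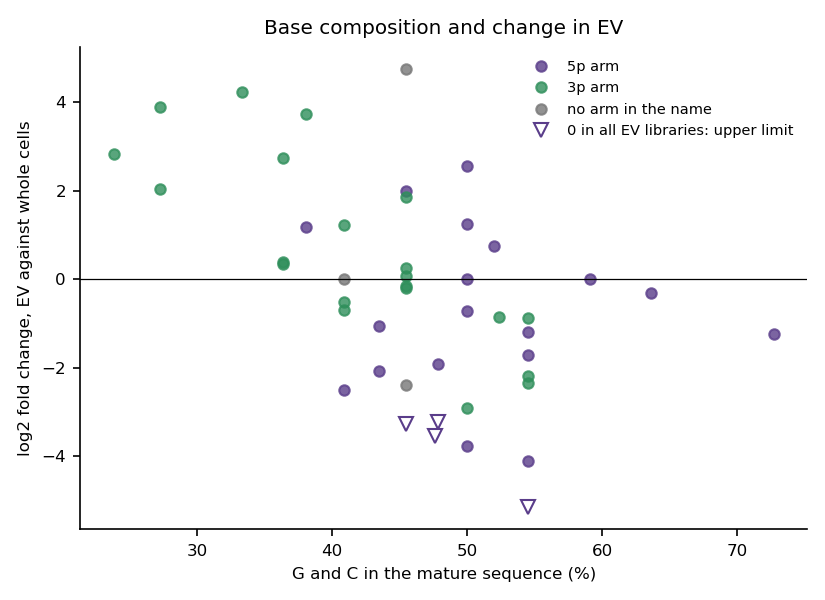
Log2 fold change in EV against whole cells plotted against the percentage of G and C in the mature sequence, for the 46 tested miRNAs with a sequence, coloured by arm. Open triangles are upper limits, by counting error alone, for strands with no count in EV. The 3p strands slope downward from 23.8% G and C.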

How the data were processed

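Small RNA of 3 whole cell and 3 EV samples of MIO-M1 was sequenced from QIAseq miRNA libraries. Per the file headers, the authors deposited the raw count of reads that featureCounts 1.5.0-p1 assigned to each mature miRNA, with strand setting 1, miRBase release 20 and a Bowtie 1 alignment. The methods name Bowtie2 and another miRBase release. The genome build is not given in the sources used here. No step that collapses reads of the same molecule is stated, so intervals cover counting error only.

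Samples were grouped by the fraction in their labels. No library was a copy of another (lowest chi-square over its degrees of freedom for 2 libraries, 41.9). The 430 miRNAs that reached 5 CPM in 3 or more libraries were scaled by TMM (factors from 0.896 to 1.20) and tested with edgeR 4.0.16 (quasi-likelihood, Benjamini-Hochberg adjustment; common dispersion 0.918) in R 4.3.3, fitted on the whole table. DESeq2 1.42.0 was an alternative, as were other scalings, no filter and each library left out. Single values were compared by two-sided exact permutation tests with scipy 1.17.1. The code was tested on data simulated with dispersions below the common dispersion found here, so that check does not cover the full spread of these libraries. Sequences were those of RefSeq (GRCh38.p14 table). Plots used matplotlib 3.10.9 (Python 3.11.15).

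The members and lists were chosen with earlier results of these data known. Named miRNAs were those past any of the limits above in edgeR or DESeq2, with an adjusted p below 0.05 in edgeR, among the 8 most abundant of either fraction, an arm of a hairpin tested for arm share, or at 0 in all EV libraries with at least 50 counts in whole cells. Others were named as examples after their values had been seen. Microscopy, protein and RT-qPCR results were not analysed here.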

Additional observations from a re-analysis of the deposited data

How the results depend on the processing

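The number called higher in EV (2) was between 0 and 2 with 1 library left out, 5 at an adjusted p below 0.05 with the same limit on size and 7 with no limit on size. The number called lower (0) was 4 in DESeq2, 1 with upper-quartile factors, 1 with library totals, 1 with no filter, between 0 and 1 with 1 library left out, 4 at an adjusted p below 0.05 with the same limit on size and 6 with no limit on size. The difference in summed share was -0.0181 percentage points without miR-409-3p, and the log2 ratio to the proximal miRNAs differed by 0.087 without miR-409-3p and miR-127-3p. The number of hairpins with a lower 5p share in every EV library (5) was 8 at a minimum of 10 counts and between 5 and 9 with 1 library left out. The causes were not tested.

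The fitted direction turned only for miRNAs that had not passed the test. miR-494-3p (0.07) was -0.18 with DESeq2 and with RLE factors, -0.075 with upper-quartile factors, -0.15 with no filter, and between -0.36 and 0.27 with 1 library left out. miR-134-5p (0.01) was -0.16 with DESeq2 and with RLE factors, -0.18 with no filter and between -0.41 and 0.18 with 1 library left out. miR-154-3p (0.40) was -0.046 with DESeq2, -0.028 with RLE factors and between -1.57 and 2.77 with 1 library left out. miR-1185-5p (1.17) was -0.091 as a difference of log2(CPM + 1) and between -1.21 and 1.88 with 1 library left out. With 1 library left out, miR-654-5p (-0.31) ran from -7.33 to 0.22, miR-1185-2-3p (-0.20) from -0.56 to 0.051, miR-382-5p (-0.00) up to 0.14 and miR-654-3p (0.26) from -0.065 to 0.32. RLE factors and DESeq2 moved the median of all miRNAs by -0.18 on the log2 scale, so that the levels near 0 above are relative to the scaling.

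No paired analysis was run, because the labels give no replicate numbers and the passages of the 2 groups differ. Pairing by adjacent passage was not tried. The depth of whole cell replicate 1 limits what can be said of members under 7.58 CPM.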
